A study of Mus musculus with 2 samples.

Results

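The genes described here encode the machinery of ER-associated degradation (ERAD) and the translocon of the endoplasmic reticulum (ER), measured in liver of PIZ mice. These C57BL/6 animals carry the human gene and promoter of ATZ, the mutant alpha-1-antitrypsin, and serve as a model of alpha-1-antitrypsin deficiency. They received no treatment and were taken at 3 months of age. From frozen, Cresyl Violet stained sections, areas of hepatocytes with visible globules and areas without them were cut out by laser and profiled on 1 array each, with RNA pooled from 2 mice per array. Both groups carry the transgene, so the comparison is between areas of transgenic liver and includes no liver without ATZ. The sources used here do not say whether the same mice gave both pools. The list holds 41 genes, chosen by function but with earlier results of these data known. A gene was measured where a probe set names that gene and no other. This applied to 38 of the 41, out of 30142 genes in the table, each with 1 probe set. Probe sets for Ube2j2, Ube2g2 and Sec61g name other genes too and are given apart. All 38 lay above the floor of 4.76 on the log2 scale (mean of both arrays) that left 15023 genes.

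Secretory proteins enter the ER through the Sec61 channel and fold there with the help of chaperones and N-glycans. Glycoproteins that fail to fold have mannose residues trimmed, are recognised by lectins, are passed through membrane ligase complexes into the cytosol, and are extracted by the ATPase VCP for destruction by the proteasome. Hepatocytes make most plasma proteins and depend on both routes, and the mutant alpha-1-antitrypsin is a known substrate of ERAD. Several ERAD genes are known targets of the unfolded protein response, in which the factors ATF6 and XBP1 act on elements close to the gene start.

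Derl3 and Edem2 had the highest signals in areas with globules relative to areas without, and March6, Edem1 and Herpud1 the lowest, while translocon genes differed little and mostly upwards. Values are log2 signals of 1 probe set, written as globule-containing against globule-free, and a difference is the first of these minus the second, so that higher and lower always refer to the areas with globules. Of the 38 measured genes, 5 (13.2%) were higher by 2-fold or more, where 6.47% of all 15023 genes above the floor were. Lower by 2-fold or more was 1 gene (2.63%), against 5.26% of all genes. At a threshold of 1.5-fold, 13 (34.2%) were higher, against 16.0%, and 3 (7.89%) were lower, against 11.9%. A difference above 0 was seen for 27 of 38 (71.1%), against 54.5% of all genes, and the median difference was 0.28, against 0.05. With the floor at the 75th percentile, 6.70, the counts past 2-fold stayed at 5 and 1. Of the 7478 genes above that floor, 8.59% were higher and 8.01% lower by 2-fold or more, and 56.7% were above 0. The contrasts with all genes also shrank when the arrays were rescaled. After quantile normalization 21 of 38 (55.3%) were above 0, against 49.9% of all genes, 4 (10.5%) were higher by 2-fold or more, against 5.66%, and 3 (7.89%) were lower, against 6.40%. After loess correction 21 of 38 were again above 0, against 49.2%, with 4 higher, against 5.63%, and 2 (5.26%) lower, against 6.40%. The share of lower genes was thus below that of all genes as deposited and after loess correction, and above it after quantile normalization. With 1 array per group there is no test, and no value has a replicate error.

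The only spread that could be read from the arrays is that between probe sets of the same gene. Where a gene had exactly 2 that passed the floor, which held for 177 genes, their differences lay a median of 0.17 apart, and the 90th percentile of this gap was 1.01. Of the 38 genes, 9 had a difference no larger than the median gap, and 6 had one larger than the 90th percentile. This gap holds neither the spread between mice nor that between captured areas. In pooled tissue, fewer cells of a type and less RNA per cell cannot be told apart.

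**Figure D1:**
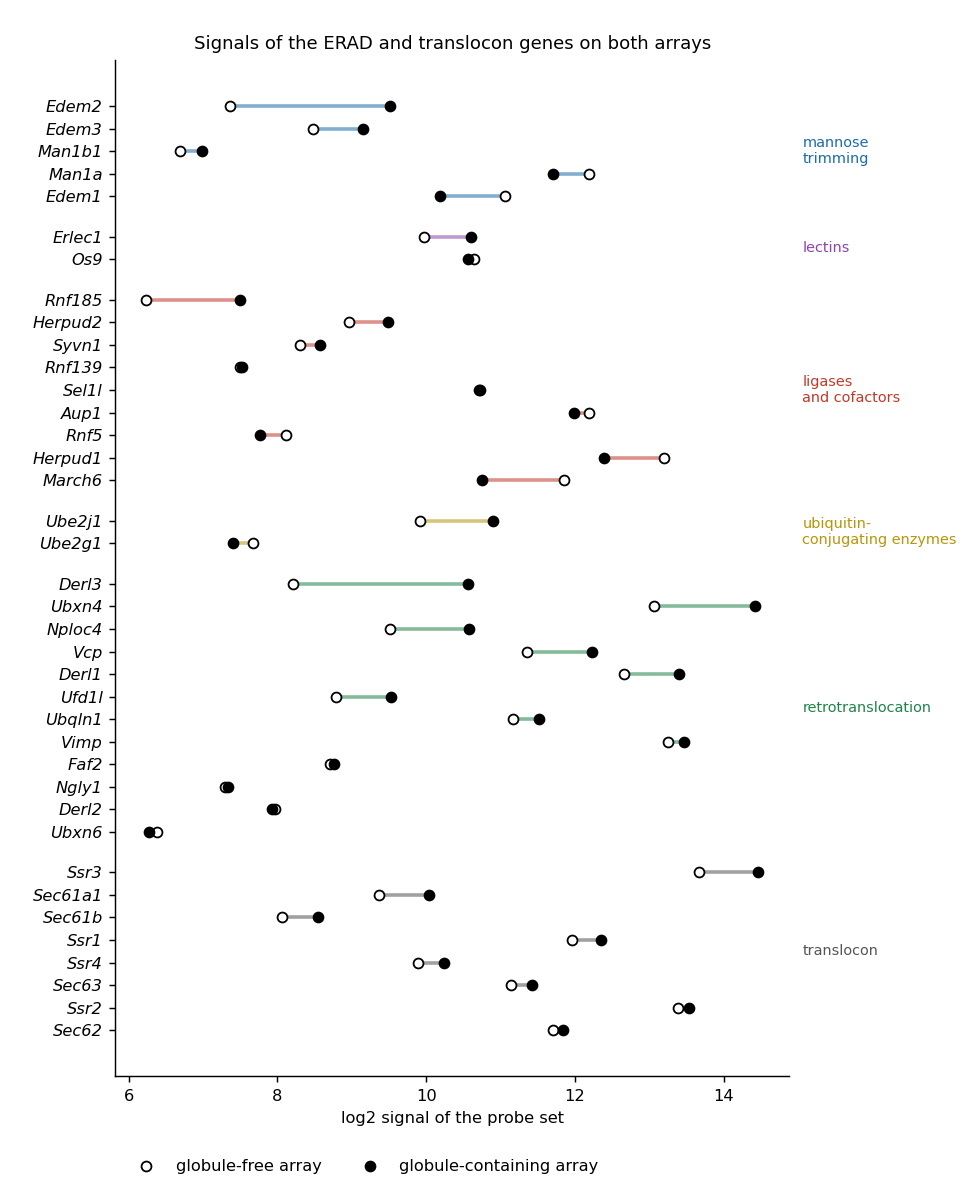
Log2 signal of the probe set of each of the 38 measured genes (x axis) on the globule-free array (open circles) and the globule-containing array (filled circles), grouped by role, with a line joining both values of a gene. Derl3 and Edem2 have the longest lines to the right and March6 the longest to the left, and signals of different genes are not comparable with each other.

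Upstream sequence is shown for the 5 genes with an exact match to a stress element in the stretch searched. RefSeq promoter windows (GRCm38.p6) were found for 33 of the 41 genes, and the 250 bases before each annotated start were searched on both strands for 4 motifs. These were the ER stress response element ERSE (CCAAT and CCACG with 9 bases between them), ERSE-II (ATTGG and CCACG with 1 base between them), the unfolded protein response element UPRE (TGACGTGG) and the C/EBP-ATF site (TTGCATCA). ERSE, ERSE-II and the reverse of UPRE share the letters CCACG and could overlap. ERSE was found in 0.113% of all 32851 windows, ERSE-II in 0.0304%, UPRE in 0.563% and the C/EBP-ATF site in 0.791%. Any of the 4 was found in 1.48% of all windows and in 5 of the 37 windows of the genes described here. The stretches run 5′ to 3′ along the gene, with the motif in capitals.
Derl3 (ERSE on the opposite strand; chr10:75893217-75893285, + strand): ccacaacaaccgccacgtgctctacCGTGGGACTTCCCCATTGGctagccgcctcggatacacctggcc
Syvn1 (ERSE; chr19:6046507-6046575, + strand): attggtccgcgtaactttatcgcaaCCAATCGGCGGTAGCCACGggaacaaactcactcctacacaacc
Herpud1 (C/EBP-ATF site, then ERSE-II; chr8:94386292-94386412, + strand): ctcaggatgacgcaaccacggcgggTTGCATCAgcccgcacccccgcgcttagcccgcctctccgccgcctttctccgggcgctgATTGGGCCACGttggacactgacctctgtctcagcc
Ube2j1 (UPRE on the opposite strand; chr4:33031287-33031344, + strand): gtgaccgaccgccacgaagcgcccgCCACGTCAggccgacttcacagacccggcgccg
Vcp (UPRE; chr4:43000589-43000646, - strand): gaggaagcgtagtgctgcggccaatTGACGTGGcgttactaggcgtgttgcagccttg
The ERSE ends 138 bases before the annotated start in Derl3 and 26 bases before it in Syvn1. In Herpud1 the ERSE-II ends 42 bases before the start. Both genes with an ERSE differed in size, with 2.35 for Derl3 and 0.27 for Syvn1. Of the genes with a UPRE, Ube2j1 had 0.99 and Vcp 0.87. Herpud1, with 2 of the motifs, neither of them found in the other genes shown, was lower, at -0.81. A match is a string of letters and does not show that a factor binds there. Only exact matches were counted, so the search does not show that the genes without one lack such elements. Genes without a window were not searched.

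Enzymes that trim mannose differed in both directions. Edem2, needed for the trimming of misfolded glycoproteins, had 9.51 against 7.36, 4.44-fold higher. Among all 15023 genes, 1.198% had a higher difference. Edem3, a mannosidase of the same family, had 9.15 against 8.48, 1.59-fold higher. Edem1, the family member best known as a target of the unfolded protein response, went the other way, with 10.18 against 11.06, 1.84-fold lower. The 3 EDEM genes thus span a range from -0.88 to 2.15 on the log2 difference scale. Man1b1, a mannosidase that acts early on such glycans, had 6.98 against 6.70, a difference of 0.29. Man1a, a mannosidase of the Golgi, had 11.70 against 12.19, 1.41-fold lower. In all, 3 of 5 (60%) were above 0, against 54.5% of all genes.

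The lectins that read the trimmed glycan also split. Erlec1 had 10.60 against 9.96, 1.55-fold higher. Os9, which has the same task, had 10.56 against 10.64, a difference of -0.08 that is smaller than the median gap between probe sets.

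Ligases and their cofactors had no common direction, with 4 of 9 (44.4%) above 0, against 54.5% of all genes, and a median of -0.02. The core of the ligase complex for lumenal glycoproteins differed little. Syvn1, the ligase HRD1, had 8.57 against 8.30, and Sel1l, the adaptor that links it to the lectins, had 10.70 against 10.73. Herpud1, a membrane protein that organises this complex and is induced by ER stress in many cells, had 12.38 against 13.19, 1.75-fold lower. Its relative Herpud2 had 9.48 against 8.96, 1.43-fold higher. Aup1, which recruits the conjugating enzyme UBE2G2 and also sits on lipid droplets, had 11.98 against 12.19, a difference of -0.21.

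Among the ligases outside the SYVN1 complex, Rnf185 was higher and March6 lower. Rnf185 had 7.501 against 6.23, 2.41-fold higher. Rnf5, a close relative of Rnf185, had 7.77 against 8.12, 1.27-fold lower. March6, a large membrane ligase that also degrades enzymes of sterol synthesis, had 10.75 against 11.85, 2.14-fold lower. As deposited, no other of the 38 genes was lower by 2-fold. Rnf139, another ligase linked to sterol control, had 7.52 against 7.496, a difference of 0.02.

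The 2 measured ubiquitin-conjugating enzymes went in different directions. Ube2j1, which acts in the ER membrane beside SYVN1, had 10.90 against 9.91, 1.99-fold higher. It fell just short of the 2-fold threshold, which Nploc4 at 2.09-fold just passed. Ube2g1, a cytosolic enzyme, had 7.41 against 7.68, a difference of -0.27. The probe set that names Ube2j2 and Gm5801 had 6.78 against 6.79, and the one that names Ube2g2 and Mir1930 had 6.20 against 6.30. Neither can be assigned to 1 gene.

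**Figure D2:**
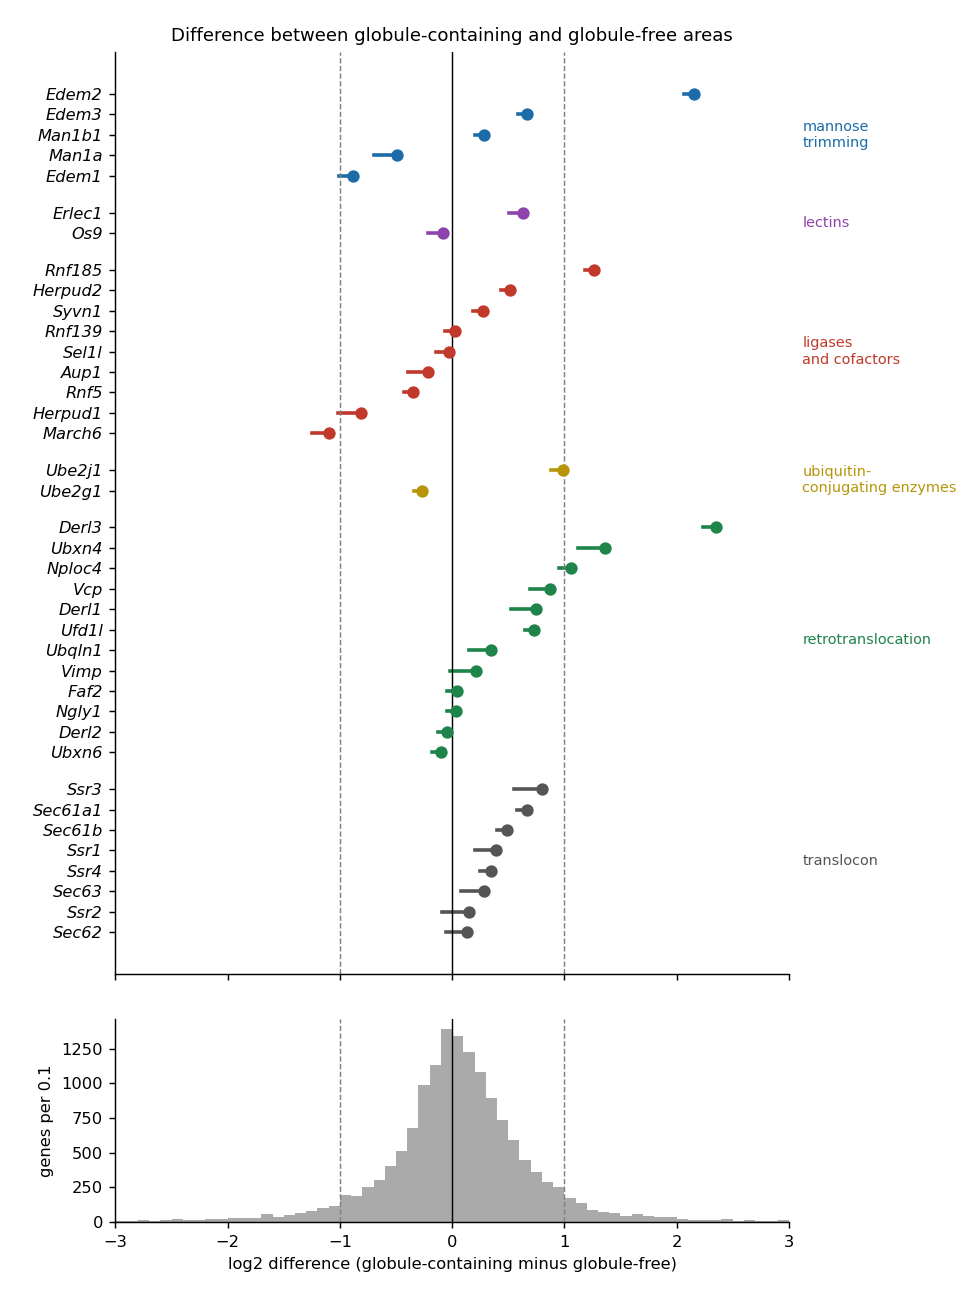
Upper panel: log2 difference (globule-containing minus globule-free, x axis) of each of the 38 genes as deposited (points), with lines over the range of its values under the alternative settings, coloured by role. Lower panel: number of genes per 0.1 of difference among all genes above the floor, with dashed lines at 2-fold in both panels. Derl3 and Edem2 lie beyond 2 on the log2 scale, and the lines run to the left because rescaling lowered most differences.

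Genes of retrotranslocation, the step that brings the substrate into the cytosol, had the highest median of the role groups, at 0.54 over 12 genes. Of these, 10 (83.3%) were above 0, against 54.5% of all genes, and 3 (25%) passed 2-fold upwards, against 6.47%. After loess correction the median was 0.36. Then 7 of 12 (58.3%) were above 0, against 49.2% of all genes, and 2 (16.7%) were past 2-fold, against 5.63%. Among the derlins, membrane proteins related to rhomboid proteases, the differences spread from -0.05 to 2.35. Derl3 had 10.56 against 8.21, 5.10-fold higher, and 147 genes of all 15023 had a higher difference. Derl1 had 13.40 against 12.65, 1.68-fold higher. Derl2 had 7.92 against 7.97, a difference of -0.05. Derl3 is also known from plasma cells and other secretory cells. Of 7 measured markers of plasma and B cells, Jchain, Mzb1, Cd79a and Ms4a1 lay at background on both arrays. The 3 above the floor, Cd79b, Sdc1 and Xbp1, had differences of -0.31, -0.61 and 0.47, with a median of -0.31. Xbp1 is also counted among the genes of the unfolded protein response. The part of plasma cells in the Derl3 difference was not tested.

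VCP and its main cofactor pair were higher together. Vcp, which encodes the ATPase that pulls substrates out of the membrane, had 12.22 against 11.35, 1.83-fold higher. Nploc4 and Ufd1l encode the heterodimer that hands it ubiquitinated substrates. Nploc4 had 10.58 against 9.52, 2.09-fold higher. Ufd1l had 9.52 against 8.79, 1.66-fold higher. After loess correction and after quantile normalization Nploc4 no longer reached 2-fold, with a lowest difference of 0.96.

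Proteins that recruit VCP to the membrane were not uniform. Ubxn4, an ER membrane protein that binds VCP, had 14.42 against 13.06, 2.57-fold higher. Vimp, which encodes selenoprotein S and ties VCP to the derlins, had 13.46 against 13.25, a difference of 0.21 that was -0.02 after loess correction or quantile normalization. Faf2, which recruits VCP to the ER and to lipid droplets, had 8.75 against 8.71. Ubxn6, a cytosolic VCP cofactor, had 6.28 against 6.38. Ubqln1, which escorts ubiquitinated proteins to the proteasome, had 11.51 against 11.17, 1.27-fold higher. Ngly1, the enzyme that strips N-glycans from extracted proteins, had 7.34 against 7.30.

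Translocon genes were slightly higher, with all 8 measured genes above 0 as deposited, where 54.5% of all genes were. Their median was 0.37, and none was past 2-fold, against 6.47% of all genes upwards and 5.26% downwards. After loess correction and after quantile normalization 6 of 8 (75%) were above 0, against 49.2% and 49.9% of all genes. The medians were then 0.23 and 0.22, and Sec62 and Ssr2 were below 0. Of the channel itself, Sec61a1, the pore subunit, had 10.03 against 9.36, 1.59-fold higher. Sec61b, a small subunit, had 8.55 against 8.06, 1.40-fold higher. The probe set that names Sec61g with Gm10177 and Gm11575 had 7.48 against 7.06. Sec62 and Sec63 assist the entry of finished chains. Sec62 had 11.84 against 11.70, a difference within the median gap between probe sets, and Sec63 had 11.42 against 11.14, a difference of 0.28.

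The translocon-associated protein complex, encoded by the Ssr genes, helps particular signal sequences into the channel. Ssr3 had 14.46 against 13.66, 1.74-fold higher, the highest difference among the translocon genes. Ssr1 had 12.34 against 11.96, 1.31-fold higher. Ssr4 had 10.24 against 9.89, 1.27-fold higher. Ssr2 had 13.53 against 13.39, a difference of 0.15. Subunits of this complex, which work together, thus had differences from 0.15 to 0.80.

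**Figure D3:**
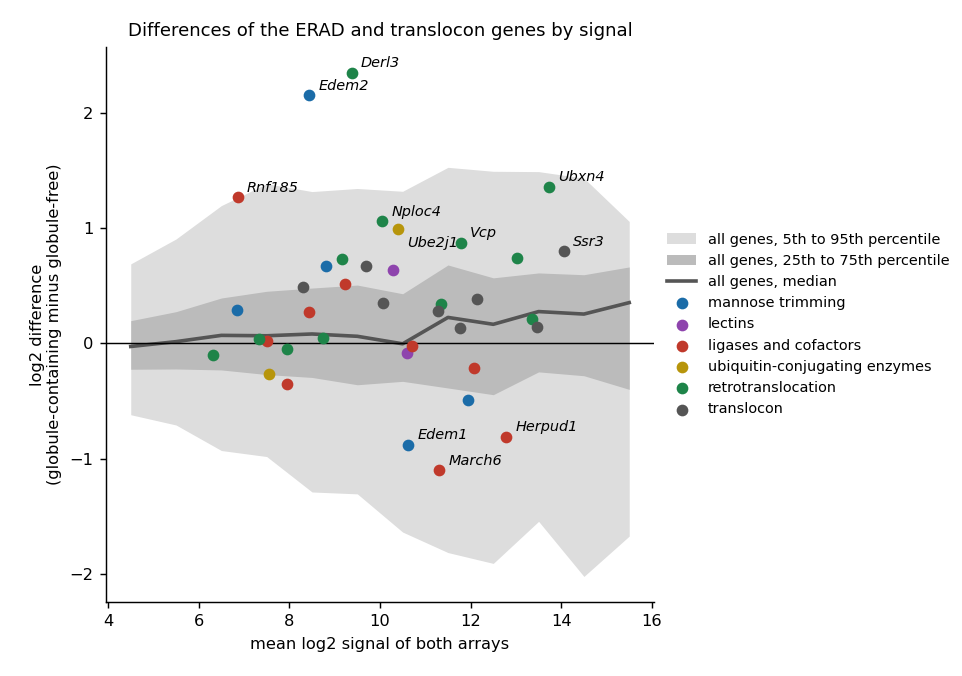
Log2 difference (y axis) of the 38 genes, coloured by role, against the mean log2 signal of both arrays (x axis), over bands for all genes above the floor in bins of 1 log2 unit up to a mean of 16. Derl3, Edem2 and Rnf185 lie above the 95th percentile for their bin, March6, Edem1 and Herpud1 lie inside the band, and the median of all genes is higher among bright probe sets.

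The signal range matters for genes this bright. Over all genes with a mean signal from 13 to 14 the median difference was 0.28, and over those from 5 to 6 it was 0.01. Ssr2, Vimp, Derl1 and Ubxn4 lie in the first of these bins, where their differences of 0.15, 0.21, 0.74 and 1.36 stand against that median.

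Further gene lists give the surroundings of these genes. Of 59 other ERAD genes above the floor, 4 (6.78%) were past 2-fold upwards, against 6.47% of all genes, and 2 (3.39%) downwards, against 5.26%. Above 0 were 67.8%, against 54.5%. At 1.5-fold, 27.1% were higher, against 16.0%, and 6.78% lower, against 11.9%. The median was 0.23, and 0.16 after quantile normalization and 0.17 after loess correction. Dnajc10, a reductase of the ER that prepares substrates for export, was 3.11-fold higher, at 10.72 against 9.09. Ubxn8, an ER membrane protein that binds VCP, was 2.85-fold higher, Ube2d1, a ubiquitin-conjugating enzyme, 2.60-fold and Nsfl1c, a VCP cofactor, 2.22-fold. Ero1a (Ero1l in older annotation), an ER oxidase, was 2.11-fold lower and Rnf121, a membrane ligase, 2.02-fold lower. Of 39 other translocation genes, 33 (84.6%) were above 0 as deposited, against 54.5% of all genes, with a median of 0.28. This median was 0.18 after quantile normalization and after loess correction, against -0.0004 and -0.008 for all genes. The share above 0 was taken only as deposited. Only 1 (2.56%) passed 2-fold upwards, against 6.47%. This was Spcs2, a signal peptidase subunit, at 14.16 against 13.07.

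Genes of the unfolded protein response had a median difference of 0.46 over 23 genes. As deposited, 82.6% were above 0, against 54.5% of all genes. The median was 0.34 after quantile normalization and 0.36 after loess correction. Past 2-fold upwards were 5 (21.7%), against 6.47% of all genes, and none was past 2-fold downwards, against 5.26%. Dnajb9, an ER co-chaperone, was 3.72-fold higher, Atf6 3.27-fold, Ddit3, which encodes CHOP, 3.09-fold and Eif2ak3, which encodes the sensor PERK, 2.17-fold. Trib3, also counted among the 5, had 5.63 against 4.17, with the globule-free signal at background. It was thus at least 1.505-fold higher and is not shown to pass 2-fold. Hspa5, which encodes BiP, was 1.59-fold higher. Ern1, which encodes the sensor IRE1, had 9.06 against 8.56, and Xbp1, whose RNA IRE1 splices, had 10.71 against 10.24. The array signal does not separate the spliced from the unspliced form of Xbp1 here. Herpud1 and Edem1 were thus lower on an array where Hspa5, Dnajb9 and Ddit3 were higher.

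**Figure D4:**
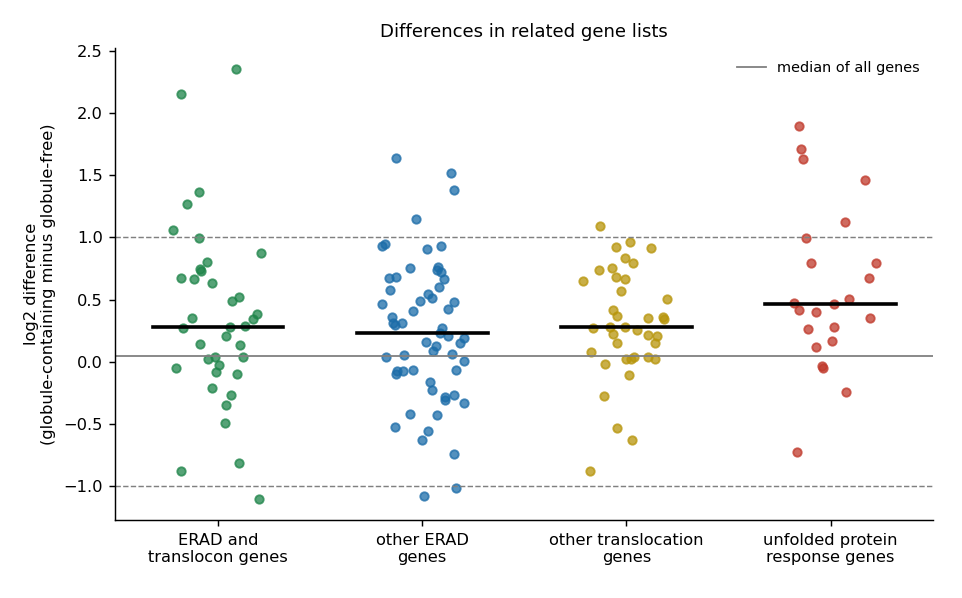
Log2 difference (globule-containing minus globule-free, y axis) of single genes above the floor (points) in 4 lists, with the median of each list (black bars), the median of all genes (grey line) and 2-fold (dashed lines). Medians are 0.28, 0.23, 0.28 and 0.46 from left to right, and Derl3 and Edem2 are the 2 highest points.

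The captured areas also differed in markers of cell types and of lobular position. All 10 measured hepatocyte markers were far above background on both arrays, with mean log2 signals of 18.2 against 18.8. Alb and Trf lay within 0.2 of the highest value on both arrays and Ttr on the globule-free one, so this mean is capped. Of the 10, 7 had a difference below 0, and Cps1 was 5.17-fold and Tdo2 3.54-fold lower. Of 7 periportal hepatocyte markers 6 were lower by 2-fold or more, with mean signals of 12.6 and 15.6. Of 9 pericentral markers 2 were higher by that much, with means of 13.7 and 12.8. Of 11 stellate cell or fibroblast markers above the floor, 10 were higher by 2-fold or more, with means of 9.16 and 6.94, and Des lay at background on both arrays. Macrophage markers split, with 6 of 14 past 2-fold upwards and 5 downwards, and means of 9.81 and 8.71. Of 5 neutrophil markers 2 passed 2-fold upwards, S100a8 and S100a9, and of 8 endothelial markers none was past 2-fold. Of 4 cholangiocyte markers above the floor, 1 passed 2-fold downwards and none upwards. This was Tff3, at least 26.9-fold lower, with the globule-containing signal at background. Krt7 and Cftr lay at background on both arrays. The part of these cell types, or of lobular position, in the differences of the ERAD and translocon genes was not tested.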

How the data were processed

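The deposited table holds log2 signals for 72688 probe sets on 2 arrays. Captured RNA (50 ng per array) was amplified before hybridisation, per the labels' protocols. The authors made the values with the Transcriptome Analysis Console, per the submitters' processing notes. The sources used here name no version of it, no genome build and no step for background or normalization. Probe sets were named from the platform annotation, which gave 30604 probe sets naming 1 gene and 2146 naming several. Symbols were updated through Entrez IDs where these matched RefSeq (GRCm38.p6), for 22818 probe sets, and probe sets of a gene were averaged. The floor of 4.76 is the median over probe sets naming 1 gene. Background was taken from 1719 probe sets of olfactory and vomeronasal receptors as their 95th percentile, 4.85 on the globule-containing and 5.04 on the globule-free array. None of the 38 measured ERAD and translocon genes lay at background or within 0.2 of the highest value. With 1 array per group no test was run. The precision is limited by the number of arrays.

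The genes, the other lists and the markers were chosen with earlier results of these data known. All 41 genes may be named, and from the other lists those at least 2-fold apart, at most 5 per direction, with Hspa5, Xbp1, Ern1, Atf6, Ddit3 and Dnajb9 whatever their values. Genes named outside this rule are marker genes or are said to have been chosen after their values were seen. Steps were tested on simulated arrays. Alternatives were the floor, the scaling, the threshold, the choice of probe set and the treatment of dim values. Tools were statsmodels 0.14.6, pandas 2.3.3, numpy 2.4.6 and matplotlib 3.10.9 under Python 3.11.15.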

Additional observations from a re-analysis of the deposited data

How the results depend on the processing

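The count of genes at least 2-fold higher was 5 as deposited and 4 after quantile normalization or loess correction, where Nploc4 fell short. The count at least 2-fold lower was 1 as deposited, 3 after quantile normalization, with Herpud1 and Edem1 added, and 2 after loess correction, with Herpud1 added. Over all genes, 6.47% were higher and 5.26% lower as deposited, 5.66% and 6.40% after quantile normalization, and 5.63% and 6.40% after loess correction. At 1.5-fold the counts were 13 higher and 3 lower. The median difference of 0.28 ranged from 0.17 after quantile normalization to 0.35 with the mean in its place, and was 0.24 without the 6 genes past 2-fold, an alternative added once the data had been seen. The medians of the other ERAD, translocation and unfolded protein response lists moved by less than 0.17 under every alternative run. Of 303 single-gene values under the alternatives, 283 lay within 0.17 of the deposited difference. The other 20 all came from quantile normalization or loess correction. Apart from these and centring on the median difference, no alternative could change a value, because each gene has 1 probe set above the floor and background. The 283 thus say little about how stable the differences are. Faf2, Ngly1 and Rnf139 changed sign under 3 alternatives, and Sec62, Ssr2 and Vimp under 2. No gene past 2-fold changed sign. No paired analysis was possible because each group has 1 array. The lowest signal among these genes was 6.23, above background on both arrays, so background did not limit them. The change of the median difference of all genes with signal, given above, still applies to them.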

Other observations

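Genes with the same promoter motifs were looked up across the whole table, after the values were seen. Of all 15023 genes above the floor, 54.5% had a difference above 0, and the median was 0.05. Past 2-fold were 6.47% upwards and 5.26% downwards. Of 16 genes above the floor with an ERSE in the 250 bases before a RefSeq start, 14 had a difference above 0, with a median of 0.40. Past 2-fold were Derl3 upwards and 1 gene downwards. Of 71 genes with a UPRE, 39 were above 0, 2 were past 2-fold upwards and 3 downwards, and the median was 0.02. Of 78 genes with a C/EBP-ATF site, 45 were above 0, 8 were past 2-fold upwards and 3 downwards, and the median was 0.09. Of 7 genes with an ERSE-II, Herpud1 among them, 5 were above 0, with a median of 0.20. The shares above 0 of the UPRE and C/EBP-ATF lists lay near that of all genes. These lists are short and include the genes described above.

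Complexes beside the channel were looked up as wholes, also chosen after their values were seen. The 6 measured proteins of the signal recognition particle, which brings nascent chains to the ER, had differences from 0.02 for Srp14 to 0.96 for Srp68. The 5 signal peptidase subunits ran from -0.11 for Spcs1 to 1.09 for Spcs2. Of 9 subunits of the ER membrane complex, which inserts membrane proteins, 7 were above 0 as deposited, where 54.5% of all genes were. The range was from -0.87 for Emc2 to 0.50 for Emc8. Of the glucosidases that trim new N-glycans, Mogs, which removes the first glucose, differed by 0.93, whereas Ganab and Prkcsh, the subunits of the enzyme that removes the next, differed by -0.74 and -0.33.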
